A study of Mus musculus with 27 samples.

Results

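The serine 2-phosphorylated form of RNA polymerase II (Ser2P Pol II) was mapped by chromatin immunoprecipitation sequencing (ChIP-seq) in mouse embryonic stem cells after knockdown of WDR43. The members are the 4 peak lists whose labels give a Ser2P antibody, 2 from cells with a short hairpin RNA against WDR43 (shWDR43-1 and shWDR43-2) and 2 from cells with a control hairpin (shCtl-1 and shCtl-2). They make up 4 of 27 samples and 4 of 17 peak lists, and hold 15202 of 227913 listed peaks. The series addressed the binding of WDR43, an RNA-binding protein, to open chromatin and its part in transcription. Beside Ser2P it mapped hypophosphorylated Pol II (hypoP) and Pol II phosphorylated at serine 5 (Ser5P) in the same pair of conditions, tagged WDR43 itself, and RNA in 2 shWDR43 and 2 shCtl libraries. All cells were grown in serum with leukemia inhibitory factor. The labels do not say whether numbers 1 and 2 of the ChIP libraries are cultures or hairpins, so the spread between them may be technical. Below, paired values stand in the order library 1, library 2.

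The largest Pol II subunit ends in a long tail of heptapeptide repeats, the C-terminal domain. Serine 5 of the repeat is phosphorylated as transcription starts, and serine 2 is phosphorylated later by CDK9 of the elongation factor P-TEFb and by CDK12 and CDK13, so that Ser2P is usually highest towards and beyond the 3′ ends of genes, where it helps to bring in cleavage, polyadenylation and termination factors. WDR43 is a WD-repeat protein of the UtpA complex, a part of the small-subunit processome that matures the precursor of 18S ribosomal RNA in the nucleolus.

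RNA of Wdr43 was 21.2 and 20.7 FPKM (fragments counted per kb of transcript, on the scale of the deposited table) in shWDR43, against 82.3 and 78.2 FPKM in shCtl, so the RNA libraries matched their labels. Calls on RNA below are from limma with Benjamini-Hochberg adjustment at 0.05 over 12452 genes, of which 42.7% fell and 6.1% rose. With any 1 of the 4 RNA libraries left out no gene passed it, while 4572 to 5478 genes had an unadjusted p under 0.05. The median log2 fold change of all genes was −0.39. The name of the deposited RNA table refers to a spike-in, and how it entered the scale is not stated. Centring the libraries on their medians, given below as an alternative, removes any difference shared by all genes, so a shared fall in RNA and an offset of the scale cannot be told apart. All 8 embryonic stem cell markers were expressed, with 70.3 FPKM or more in every library and summed values of 2705 and 2535 FPKM in shWDR43 and 4968 and 5075 FPKM in shCtl. The 9 fibroblast markers summed to 37.7 and 64.9 FPKM in shWDR43 and to 30.6 and 41.9 FPKM in shCtl, with 4 of 9 under 1 FPKM and 2 of 9 at 0. The 9 markers of endoderm and mesoderm summed to 6.3 and 5.9 FPKM in shWDR43 and to 5.7 and 5.9 FPKM in shCtl, and 6 neuroectoderm markers to 21.9 and 18.5 FPKM in shWDR43 and to 13.1 and 12.2 FPKM in shCtl. In bulk samples fewer cells of a type and less RNA per cell cannot be told apart. Read depth of the ChIP libraries is unknown.

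Fewer and narrower Ser2P peaks were listed after knockdown. The lists held 3501 and 3504 peaks in shWDR43, against 3878 and 4319 peaks in shCtl, a difference of 14.5%. They covered 7.41 and 7.45 Mb in shWDR43, against 8.96 and 10.6 Mb in shCtl, which is 24.0% less. The shWDR43 libraries lay close together and below both shCtl libraries on each measure, while the shCtl libraries differed from each other by 441 peaks. Median peak width was 1660 and 1683 bp in shWDR43 and 1919 and 2018 bp in shCtl. Peaks over 5 kb made up 5.40% and 5.31% of the shWDR43 lists and 6.94% and 8.64% of the shCtl lists. Median score, the authors' own value for each peak, was 79.7 and 81.7 in shWDR43 and 80.9 and 81.8 in shCtl, so that the groups overlapped on this measure. With 2 libraries against 2, the exact two-sided permutation test cannot go below p = 0.333, which peak number, covered bases and median width each reached.

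**Figure D1:**
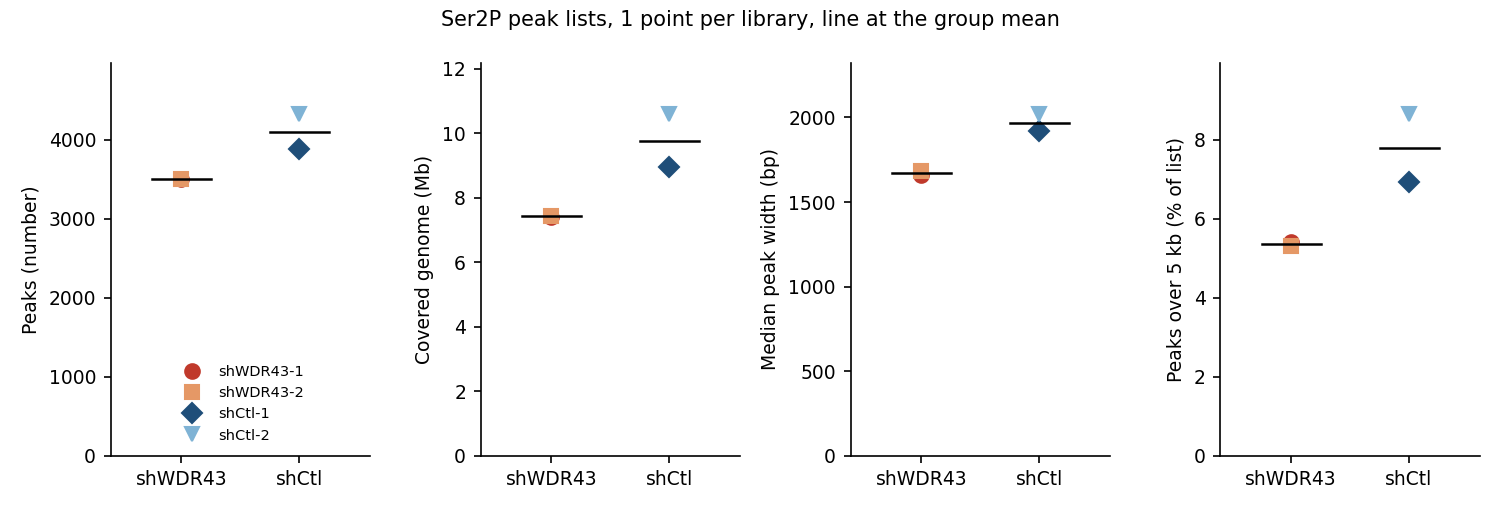
Number of Ser2P peaks, genome covered (Mb), median peak width (bp) and share of peaks over 5 kb (%) in each library, with a line at each group mean (n = 2 each). Both shWDR43 points lie below both shCtl points in all 4 panels, and shCtl-2 is the highest library in each.

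For the other forms of Pol II the order of the groups was the reverse. HypoP peaks numbered 31473 and 24485 in shWDR43, against 19542 and 19561 in shCtl, and Ser5P peaks numbered 6535 and 7589 in shWDR43, against 1879 and 2520 in shCtl. For both forms the shWDR43 lists were the longer ones, without overlap between the groups. The difference between forms was not tested, since depth and thresholds of the lists are not known to be alike.

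A Ser2P peak was listed at 6506 separate places in at least 1 library, and 1879 of these places (28.9%) had a peak in all 4. Both shCtl libraries and no shWDR43 library had a peak at 476 places, and both shWDR43 libraries and no shCtl library at 219. A single library accounted for 513 and 488 places in shWDR43-1 and shWDR43-2 and for 587 and 919 places in shCtl-1 and shCtl-2. Of the shWDR43-1 peaks, 70.4% overlapped a peak of shWDR43-2, and 69.2% and 70.8% overlapped peaks of shCtl-1 and shCtl-2. By this share, shWDR43-1 met its replicate about as often as it met the shCtl lists. The shCtl lists are longer and cover more bases, so a peak can meet them more easily. Closeness of agreement within and across groups therefore cannot be read from these shares. Of the shCtl-2 peaks, 57.3% and 58.0% overlapped peaks of shWDR43-1 and shWDR43-2, and 67.0% overlapped a peak of shCtl-1. Of the shCtl-1 peaks, 63.2% and 62.4% overlapped peaks of shWDR43-2 and shWDR43-1, and 74.8% overlapped a peak of shCtl-2.

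Within the 1879 shared places, peaks were narrower after knockdown. The median place was covered over 2016 and 2043 bp in shWDR43, against 2405 and 2757 bp in shCtl. In 886 of them (47.2%) both shWDR43 libraries were narrower than both shCtl libraries, and in 125 (6.65%) both were wider. The median log2 ratio of widths was −0.16 and −0.15 for shWDR43-1 and shWDR43-2 over shCtl-1, and −0.31 and −0.30 over shCtl-2. Between replicates the median log2 ratio was 0.01 for shWDR43-2 over shWDR43-1 and 0.13 for shCtl-2 over shCtl-1. Every ratio across groups was larger in size than both ratios within groups.

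Past the far ends of genes less was covered by Ser2P peaks after knockdown, and at their starts the groups overlapped. The deposited table gives no strand, so a protein-coding locus was oriented where exactly 1 of its ends had a hypoP peak shared by both shCtl libraries within 1 kb; that end was taken as the start side (the marked end) and the other as the far end. This oriented 9429 of 20192 coding loci, and 96.5% of the 7195 that RefSeq gives a strand had the same direction there. Over the 8455 oriented loci of at least 5 kb, Ser2P peaks covered 9.10% and 9.23% of the 4 kb past the far end in shWDR43, against 11.6% and 13.6% in shCtl, 27.4% less. Over the 2 kb around the marked end they covered 4.93% and 5.05% in shWDR43, against 4.64% and 5.27% in shCtl. The groups did not overlap past the far end and did overlap at the marked end. A peak lay in the 4 kb past the far end of 1550 and 1571 loci in shWDR43 and of 1855 and 2067 loci in shCtl, and around the marked end of 695 and 699 loci in shWDR43 and of 625 and 682 loci in shCtl.

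The covered share past the far end was also divided by that at the marked end, within each library. This ratio was 1.85 and 1.83 in shWDR43, against 2.50 and 2.59 in shCtl, with a difference of −0.70 (exact two-sided permutation test, p = 0.333, the smallest possible). The gap between groups was wider than the gap between replicates in either group. In the 2843 loci with no other coding locus within 10 kb the ratio was 2.73 and 3.20 in shWDR43 and 4.77 and 5.03 in shCtl. With RefSeq strands in place of hypoP peaks, over 11525 loci, it was 1.95 and 1.90 in shWDR43 and 2.58 and 2.65 in shCtl. Where the 3000 highest scoring peaks of each list were used, the difference was −0.58.

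**Figure D2:**
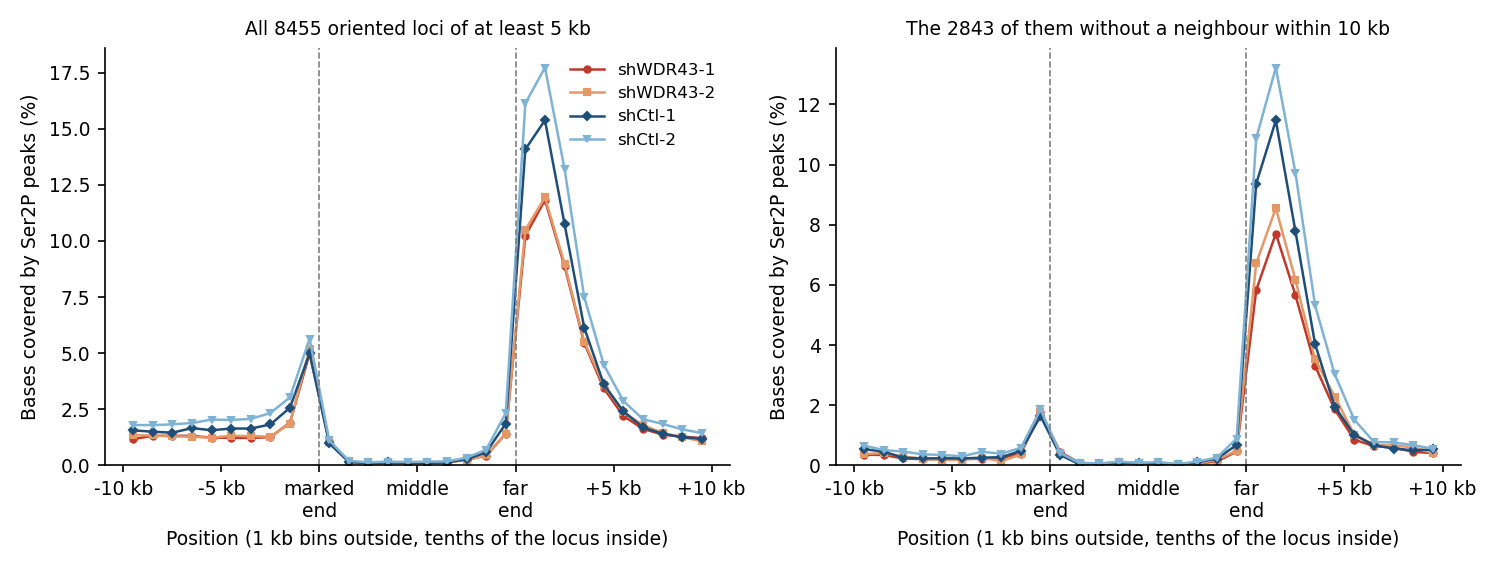
Share of bases covered by Ser2P peaks (%) from 10 kb before the marked end, through 10 equal bins of the locus, to 10 kb past the far end, for each library, over 8455 oriented loci (left) and the 2843 without a neighbour within 10 kb (right). Coverage is highest in the second kb past the far end, at 11.8% and 11.9% in shWDR43 and 15.4% and 17.7% in shCtl (left), while the lines nearly coincide at the marked end.

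Coverage was highest in the second kb past the far end, where peaks took 11.8% and 11.9% of bases in shWDR43 and 15.4% and 17.7% in shCtl. In the first kb past the end the shWDR43 mean was 0.69 of the shCtl mean, in the fourth kb 0.80 and in the seventh kb 0.91. The difference was therefore greater close to the gene end than further out. The last of 10 equal bins of the locus was covered to 1.41% and 1.41% in shWDR43 and to 1.86% and 2.33% in shCtl, a ratio of 0.67. In the kb before the marked end the values were 4.997% and 5.21% in shWDR43 and 4.99% and 5.65% in shCtl. Inside loci coverage was low in all libraries, so these lists say little about gene bodies. Of all covered bases near these loci, 56.2% and 56.6% lay past the far end in shWDR43, against 57.3% and 56.7% in shCtl, so the share of covered bases differed little between libraries. From the third to the fifth kb before the marked end the ratio of group means was 0.61 to 0.69. In the loci with no other coding locus within 10 kb it was 0.58 to 0.75 there, where peaks covered 0.136% to 0.451% of bases. A lower coverage in shWDR43 was thus not limited to the far end, and its cause was not tested.

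At 181 loci without close neighbours a single Ser2P peak spanned the region past the end in all 4 libraries, and its edges could be followed. The near edge lay at a median of 223 and 146 bp past the far end in shWDR43, against 20 bp past it and 106 bp before it (−106) in shCtl. The outer edge lay at 2760 and 2721 bp in shWDR43 and at 2842 and 3113 bp in shCtl. In 97 of the 181 loci (53.6%) the near edge began later in both shWDR43 libraries than in both shCtl libraries, and in 1 locus it began earlier. The outer edge lay closer to the gene in both shWDR43 libraries in 69 loci and further out in 20. The side nearer the gene was the one where the order of the groups was most uniform.

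The difference past gene ends was smallest, as a ratio, at the genes with the most RNA; the trend was not tested. Where shCtl RNA was 1 to 10 FPKM (3362 loci), peaks covered 3.53% and 3.401% of the 4 kb past the end in shWDR43 and 4.84% and 6.11% in shCtl, a ratio of group means of 0.63. From 10 to 50 FPKM (3136 loci) the values were 11.8% and 11.8% in shWDR43 and 15.0% and 18.0% in shCtl, a ratio of 0.72. From 50 to 200 FPKM (877 loci) they were 22.7% and 23.9% in shWDR43 and 29.2% and 32.7% in shCtl, a ratio of 0.75. Above 200 FPKM (162 loci) they were 42.1% and 42.9% in shWDR43 and 44.5% and 43.0% in shCtl, a ratio of 0.97, and the groups nearly touched. At the marked end the ratio of group means lay between 0.97 and 1.06 in every class.

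**Figure D3:**
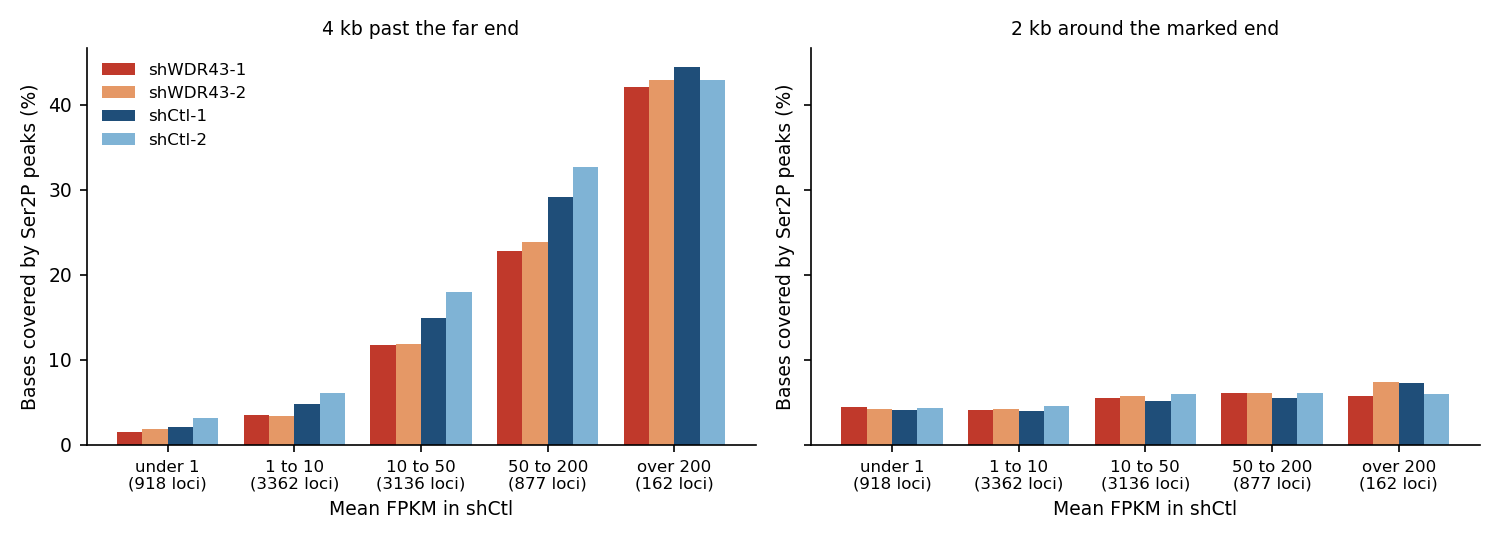
Share of bases covered by Ser2P peaks (%) in the 4 kb past the far end (left) and the 2 kb around the marked end (right), by mean FPKM of the gene in shCtl, 1 bar per library. Past the end the shWDR43 bars are below the shCtl bars up to 200 FPKM and nearly level with them above it, and at the marked end the bars stay close.

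The most transcribed genes carry a limit of the lists. No Ser2P peak was wider than 8426 bp, and no peak in any of the 17 lists was wider than 9216 bp. Of 139 coding loci with a shCtl mean of at least 500 FPKM, a Ser2P peak lay within 5 kb of 122 and 126 in shWDR43 and of 114 and 100 in shCtl, the reverse of the order at other genes. At 41 of them some libraries listed a peak and others none. Trim28, a corepressor that silences endogenous retroviruses in stem cells, had 7.26 and 7.40 kb of peaks within 5 kb in shWDR43, against 8.89 kb in shCtl-1 and 0 in shCtl-2. Rpl3, a large-subunit ribosomal protein gene, had 7.97 and 7.50 kb in shWDR43, against 0 in shCtl-1 and 8.31 kb in shCtl-2. The translation elongation factor gene Eef1a1 had 0 and 6.53 kb in shWDR43 and 0 in both shCtl libraries. At such genes a missing peak stood beside wide peaks in other libraries, and whether wide domains were dropped when the lists were made was not tested.

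Sorted by the widest peak in any library, places of 2 to 3 kb (1111 places) had a peak in 58.0% and 59.5% of cases in shWDR43 and in 73.1% and 81.9% in shCtl. Places of 6 to 7 kb (194 places) had one in 85.6% and 86.1% in shWDR43 and in 72.7% and 67.0% in shCtl. Places of 7 to 8 kb (64 places) had one in 87.5% and 78.1% in shWDR43 and in 67.2% and 60.9% in shCtl. The order of the groups turned round between narrow and wide places, so a gain at a wide place has to be read with that in view.

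**Figure D4:**
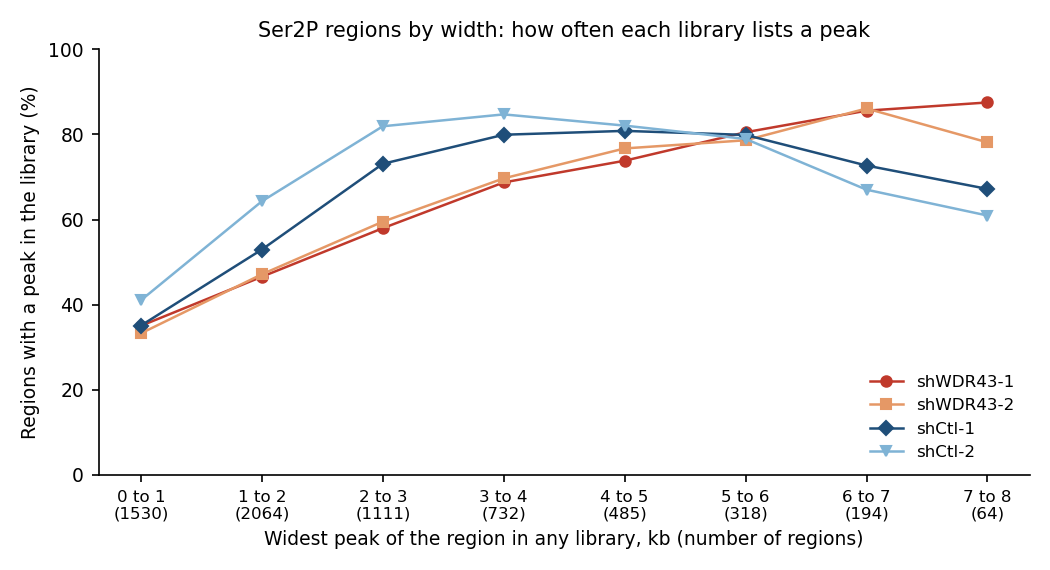
Share of places with a peak in each library (%), by the widest peak that any library listed there (kb, number of places in brackets); the 8 places over 8 kb are not drawn. The shCtl lines are above the shWDR43 lines below 5 kb and under them from 6 to 8 kb.

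A consensus peak of a group was a peak of its library 1 that shared at least 1 bp with a peak of library 2. There were 2465 in shWDR43 and 2901 in shCtl. Of the shCtl consensus peaks, 2421 (83.5%, exact binomial 95% interval 82.1% to 84.8%, counting error only) met a peak in 1 or both shWDR43 lists and 480 (16.5%) met none, here called lost. Of the shWDR43 consensus peaks, 2243 (91.0%) met a shCtl peak and 222 (9.01%) met none, here called gained. Lost peaks were weaker and narrower than kept ones within the shCtl-1 list, with a median width of 1612 bp against 2244 bp and a median score of 66.7 against 102. Gained peaks had a median width of 1466 bp and a median score of 66.2 in the shWDR43-1 list, against 2002 bp and 104 for kept ones. Both sets therefore came largely from the weak end of their lists.

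Lost peaks lay within 1 kb of an end of a coding locus in 59.8% of cases and outside coding loci in 33.3%, against 71.7% and 21.0% of kept shCtl peaks. A hypoP peak shared by both shCtl libraries overlapped 27.1% of lost and 45.9% of kept peaks. A peak of tagged WDR43 (FB-WDR43, 1 library) overlapped 28.1% of lost, 50.1% of kept shCtl and 61.3% of gained peaks. Among all Ser2P peaks the overlap with that list was 49.6% and 49.97% in shWDR43 and 44.2% and 42.9% in shCtl. The differences between these sets were not tested.

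Among lost peaks the highest score, 206, belonged to a 291 bp peak on chromosome 3 with no coding locus within 5 kb. The next, with a score of 169, spanned 6093 bp at chr17:37146276-37152368 (mm9) at Zfp57, a zinc finger protein that keeps imprinted methylation, and Mog, a myelin gene. The next, with a score of 150, was a 362 bp peak on chromosome 1 with no coding locus within 5 kb. RNA of Zfp57 was 127 and 123 FPKM in shWDR43, against 216 FPKM in both shCtl libraries, a log2 fold change of −0.79 ± 0.11 (SE, limma, adjusted p = 0.0022). Gained peaks of the highest scores were 567 at Ptma, 485 at Pkm and 364 near Msh4. The peak at Ptma, which encodes the abundant acidic chromatin protein prothymosin alpha, covered 92.4% and 90.8% of the 4 kb past its end in shWDR43 and 0% in both shCtl libraries. Its RNA went the other way, with 2526 and 1956 FPKM in shWDR43 against 6265 and 6512 FPKM in shCtl, a log2 fold change of −1.52 ± 0.13 (SE, limma, adjusted p = 0.00102). Pkm, the pyruvate kinase gene of glycolysis, had 3.79 and 3.88 kb of peaks within 5 kb in shWDR43 and 0 in both shCtl libraries, while its RNA was 359 and 323 FPKM in shWDR43 against 813 and 853 FPKM in shCtl. Both gained genes belong to the highly expressed class in which peaks were missing from shCtl more often, and the part of that in the gain was not tested.

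Chac1 and Bmp4, chosen after their values were seen, showed loss beside lower RNA. Chac1, a glutathione-degrading enzyme induced by the transcription factor ATF4, had 0% of the 4 kb past its end covered in both shWDR43 libraries, against 55.0% and 58.2% in shCtl, and 0.6 and 0.5 FPKM in shWDR43, against 5.7 FPKM in both shCtl libraries. Bmp4, a secreted ligand of the SMAD1/5 pathway, had 0% there in both shWDR43 libraries and 100% in both shCtl libraries, and 6.1 and 5.7 FPKM in shWDR43, against 29.4 and 29.1 FPKM in shCtl. The 250 bases before the start of Ptma, with the strongest gain, and of Chac1, a loss, are shown so that the pair can be set side by side (RefSeq, GRCm38.p6, plus strand, 5′ to 3′). Ptma lies at chr1:86526307-86526556 and Chac1 at chr2:119350992-119351241. Capitals mark matches on either strand to the TATA box TATAAA, the CCAAT box, the GC box GGGCGG and the CARE element TGATGCAA bound by C/EBP and ATF factors.
Ptma: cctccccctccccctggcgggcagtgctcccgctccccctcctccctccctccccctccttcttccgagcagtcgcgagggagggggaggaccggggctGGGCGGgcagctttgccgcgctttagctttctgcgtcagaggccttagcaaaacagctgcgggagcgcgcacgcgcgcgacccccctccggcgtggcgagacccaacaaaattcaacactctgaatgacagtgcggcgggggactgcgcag
Chac1: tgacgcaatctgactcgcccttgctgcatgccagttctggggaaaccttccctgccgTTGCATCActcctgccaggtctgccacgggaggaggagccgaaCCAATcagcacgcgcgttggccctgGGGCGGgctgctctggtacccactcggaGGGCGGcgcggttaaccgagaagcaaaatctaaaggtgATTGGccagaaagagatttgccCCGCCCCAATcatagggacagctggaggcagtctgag
The window of Ptma held 1 GC box. That of Chac1 held 3 CCAAT matches, 3 GC boxes, 1 of which overlaps a CCAAT match, and 1 CARE element on the opposite strand, 193 bases before the start. Among 32851 RefSeq windows of this length, TATAAA occurred in 12.4%, CCAAT in 33.8%, GGGCGG in 32.7% and TGATGCAA in 0.791%. The Ser2P peaks themselves lie past the far ends and outside these windows, and their own sequence, on mm9, is not printed here.

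A call per gene used a fixed size. A locus was called lower where the covered share in both shWDR43 libraries was at least 10 percentage points below that in both shCtl libraries, and higher in the reverse case; this is a rule of size and not a test. Over whole loci, 202 of 20192 were called lower (1%) and 62 higher (0.307%), or 4.67% and 1.43% of the 4325 loci with any peak base. In the 4 kb past the far end of the 9429 oriented loci, 535 were called lower (5.67%) and 112 higher (1.19%), or 16.7% and 3.5% of the 3199 with a peak there. Without shCtl-2, the longest list, 907 were called lower and 237 higher past the end. With each library scaled to the same number of covered bases, 354 loci were called lower and 357 higher past the end, so the excess of lower calls there was not seen after scaling. Over whole loci that scaling gave 138 lower and 180 higher.

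Among loci of at least 5 kb, the largest falls were at Haghl, Shmt2, Zfp36l1, Keap1, Rpl4, Hnrpdl, Mfap2 and Mog. RNA was at most 0.5 FPKM for Mfap2 and at most 1.6 FPKM for Mog in every library. Whether the peaks there belong to these genes was not tested. Shmt2, the mitochondrial serine hydroxymethyltransferase of one-carbon metabolism, was covered over 6.50% and 7.50% of its length in shWDR43, against 64.2% and 51.6% in shCtl, and its RNA fell to 26.8 and 25.8 FPKM in shWDR43, against 67.5 and 72.2 FPKM in shCtl. Keap1, the adaptor that targets the oxidative stress factor NRF2 for degradation, was covered over 0% in both shWDR43 libraries, against 44.3% and 48.0% in shCtl, while its RNA was 4.6 and 5.9 FPKM in shWDR43 and 5.2 and 5.3 FPKM in shCtl. Zfp36l1, which binds AU-rich elements and speeds mRNA decay, was covered over 2.19% and 1.52% in shWDR43, against 39.4% and 59.9% in shCtl. Hnrpdl, an RNA-binding protein of the hnRNP family, was covered over 2.20% and 17.0% in shWDR43, against 49.3% and 56.0% in shCtl. In these 4 genes the covered shares of the groups do not overlap by construction, since the size rule picked them. RNA of Shmt2, Zfp36l1 and Hnrpdl fell and that of Keap1 did not pass the test (adjusted p = 0.97, limma). After centring, Zfp36l1 was past the threshold no longer (adjusted p = 0.085, limma).

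The largest rises were at Trmt2a, Tmem91, Hyal3, Asb6, Xbp1, Cbx6, Slc9a3r2 and Mmachc. RNA of Tmem91 and Hyal3 was at most 0.5 FPKM in every library, and whether their peaks belong to these genes was not tested. Xbp1, a transcription factor of the unfolded protein response, was covered over 53.6% and 58.8% in shWDR43 and 0% in both shCtl libraries, while its RNA fell to 8.5 and 10.5 FPKM in shWDR43, against 21.1 and 23.9 FPKM in shCtl. Trmt2a, a tRNA methyltransferase, was covered over 100% and 99.7% in shWDR43 and 0% in both shCtl libraries, with RNA of 7.4 and 5.8 FPKM in shWDR43 and 11.2 and 11.9 FPKM in shCtl. Cbx6, a Polycomb protein, was covered over 46.2% and 57.8% in shWDR43 and 0% in both shCtl libraries. The kb of peaks within 5 kb of these 8 loci lay between 3.05 and 7.10 kb in shWDR43, and all but Hyal3, with 1.35 and 1.82 kb, were at 0 in shCtl. The size rule and the ranking picked these loci, so the separation of the groups follows by construction. Wide places lacked a peak in shCtl more often, as given above, and the part of that in these rises was not tested.

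Several of the widest shCtl domains were narrower in shWDR43. Domains were ranked by mean width within a group, so a smaller width in the other group follows in part from the selection. Merging peaks within 3 kb, the domain at Ubtf, the Pol I transcription factor UBF, was 6380 and 3923 bp wide in shWDR43, against 11217 and 11485 bp in shCtl. That at Hnrpdl was 3640 and 3399 bp in shWDR43, against 10113 and 8876 bp in shCtl. That at Mdc1, a DNA damage adaptor, and its neighbour Nrm was 1741 and 2223 bp in shWDR43, against 9442 and 9310 bp in shCtl. The widest domains of shWDR43 included one between Usp34 and Xpo1, the nuclear export receptor, at 9680 and 9956 bp in shWDR43 and 5683 and 6322 bp in shCtl, and one at Wnt10a and Wnt6, ligands of the Wnt pathway, at 10709 and 6498 bp in shWDR43 and 2041 and 2211 bp in shCtl. The domain over Rhbdl1, Jmjd8, Stub1 and Wdr24 was wide in both groups, at 9897 and 9505 bp in shWDR43 and 9895 and 10145 bp in shCtl. The domain at Ganab and Ints5 was also among the widest of both groups. It was 13247 and 6536 bp wide in shWDR43 and 3691 and 14111 bp in shCtl, so the groups overlapped.

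Of the gene lists with more than 10 kb of peaks in every library, replication-dependent histones had the lowest ratio of covered bases, shWDR43 over shCtl. Histones package new DNA in S phase, and their messages end in a stem-loop and not in a poly(A) tail. Of 64 loci, 18 and 23 had a peak in shWDR43, against 38 in both shCtl libraries. Within 5 kb of these loci, counting each base once, peaks covered 23.8 and 26.4 kb in shWDR43, against 44.3 and 51.2 kb in shCtl, a ratio of 0.53, beside 0.76 for all coding loci. Fibroblast markers, with 0 and 0.892 kb in shWDR43 and 1.51 and 1.59 kb in shCtl, had a ratio of 0.29. The large histone cluster on chromosome 13 (52 loci) had 15.0 and 17.5 kb in shWDR43 and 32.5 and 37.7 kb in shCtl, a ratio of 0.46, and the loci on chromosome 3 (8 loci) had 7.44 and 7.68 kb in shWDR43 and 9.95 and 11.6 kb in shCtl, a ratio of 0.70. Both groups kept apart at both places. Histone loci are short, with a median of 467 bp, so that a narrow peak can cover them whole. By the size rule 12 of the 45 histone loci with a peak base were called lower and 0 higher, beside 4.67% and 1.43% of all coding loci with one. Hist1h4d, Hist1h4i and Hist1h2bk were covered over 100% in both shCtl libraries and 0% in both shWDR43 libraries.

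RNA of the histone list went in both directions, with 11 of 55 measured genes lower and 14 higher (limma, adjusted p under 0.05), or 9 and 22 after centring. That is 20% and 25.5%, or 16.4% and 40% after centring. Of all coding loci measured, 44.0% were lower and 6.28% higher, or 21.7% and 13.5% after centring. The list thus held a smaller share of lower and a larger share of higher genes, which was not tested. Poly(A)-selected RNA holds such messages only in part. Hist1h2ao fell to 116 and 101 FPKM in shWDR43, against 294 and 348 FPKM in shCtl, and Hist1h4i rose to 20.6 and 23.6 FPKM in shWDR43, against 6.9 and 14.7 FPKM in shCtl. Histone genes are near-identical copies, and the sources used here do not say how reads that fit several copies were placed.

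Ribosomal protein genes had peaks in nearly every case. Of 78 loci, 76 had a Ser2P peak inside in at least 1 library, with 61 and 63 in shWDR43 and 73 and 65 in shCtl. Of these genes 20 were called lower over the locus and 0 higher, beside 4.67% and 1.43% of all coding loci with a peak base. Such loci can be short, as Rpl12 (2334 bp) and Rpl18 (2765 bp), so a small difference in bases can reach the rule. In the 4 kb past the far end, 3 of the 29 loci with a peak there were called lower and 1 higher. Of all oriented loci with a peak there, 16.7% were called lower and 3.5% higher. The covered kb within 5 kb was 314 and 313 kb in shWDR43 and 353 and 343 kb in shCtl, a ratio of 0.90, beside 0.76 for all coding loci. Rpl12 was covered over 43.7% and 46.0% in shWDR43, against 100% in both shCtl libraries. Rpl18 was covered over 61.3% and 27.1% in shWDR43, against 100% and 89.0% in shCtl. Rpl13a was covered over 77.0% and 62.6% in shWDR43, against 82.8% and 0% in shCtl, where shCtl-2 listed no peak. RNA fell at 77 of 77 measured genes, with a median log2 fold change of −0.83, beside −0.39 over all 12452 genes tested. With the libraries centred on their medians, 61 of 77 fell and 0 rose.

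At p53 targets, RNA rose at 17 of 32 genes and fell at 2, with a median log2 fold change of 0.61, beside 6.1% of all genes that rose and 42.7% that fell. After centring, 25 rose and 1 fell. Peaks within 5 kb covered 82.3 and 72.7 kb in shWDR43, against 63.7 and 67.0 kb in shCtl, a ratio of 1.19, with no overlap between the groups, beside 0.76 for all coding loci. These totals hold genes with a peak missing from a single shCtl library. Aen had 5.90 and 5.54 kb in shWDR43, against 5.245 kb in shCtl-1 and 0 in shCtl-2, and Mdm2 had none in shCtl-1. The part of missing peaks in the ratio and in the separation of the groups was not tested. Mdm2, the ubiquitin ligase that degrades p53, had 8.13 and 8.07 kb of peaks within 5 kb in shWDR43, against 0 and 4.42 kb in shCtl, and RNA of 158 and 129 FPKM in shWDR43, against 53.2 and 49.7 FPKM in shCtl (log2 fold change 1.46 ± 0.14 SE, limma, adjusted p = 0.0011). Cdkn1a, the cyclin-dependent kinase inhibitor p21, was covered over 14.2% and 3.19% of the locus in shWDR43, against 31.9% and 26.5% in shCtl, although its RNA rose to 39.7 and 40.9 FPKM in shWDR43, against 12.9 and 14.0 FPKM in shCtl.

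Ccng1, cyclin G1, had 43.1% and 53.4% of the 4 kb past its end covered in shWDR43, against 84.0% and 82.7% in shCtl, with RNA at 220 and 201 FPKM in shWDR43, against 77.3 and 57.6 FPKM in shCtl. Btg2, an antiproliferative cofactor of mRNA deadenylation, had 41.2% and 26.0% there in shWDR43, against 60.7% and 54.9% in shCtl, with RNA at 45.8 and 39.0 FPKM in shWDR43, against 11.7 and 11.5 FPKM in shCtl. Cdkn1a, Ccng1 and Btg2 meet the size rule, so their covered shares do not overlap between groups by construction. Their RNA did not overlap between groups either, and it went the opposite way. Dcxr, a reductase of xylulose metabolism, had nearly equal peaks, at 3.96 and 3.95 kb in shWDR43 and 3.86 and 3.90 kb in shCtl, beside RNA of 36.2 and 37.0 FPKM in shWDR43 and 8.0 and 8.6 FPKM in shCtl. Of the list, 2 of 25 oriented loci were called lower past the end and 0 higher, beside 5.67% and 1.19% of all oriented loci. Of the 25, 17 had a peak there, and 2 of 17 is near the 16.7% of all oriented loci with one.

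Immediate early and ERK feedback genes are short genes that respond to growth factor signals. Within 5 kb of 24 loci, peaks covered 16.3 and 15.3 kb in shWDR43, against 18.9 and 22.0 kb in shCtl. That is a ratio of 0.77, near the 0.76 of all coding loci. Of 19 measured genes, 6 fell in RNA and 7 rose, or 5 and 9 after centring. Of all coding loci measured, 44.0% fell and 6.28% rose, or 21.7% and 13.5% after centring. Of 16 oriented loci, 6 had a peak past the end, of which 5 were called lower and 1 higher, beside 16.7% and 3.5% of all oriented loci with a peak there. Spry2, an inhibitor of receptor tyrosine kinase signalling, had 0% covered there in both shWDR43 libraries, against 94.6% and 100% in shCtl, and RNA of 59.3 and 43.1 FPKM in shWDR43, against 108 and 104 FPKM in shCtl. Dusp6, the ERK phosphatase, had 45.5% and 48.8% in shWDR43, against 65.3% and 64.6% in shCtl. Dusp1, Klf6 and Zfp36 had 0% in both shWDR43 libraries, against 17.6% to 41.4% in shCtl. RNA of Zfp36 was at most 0.1 FPKM in every library. RNA of Klf6 rose to 17.5 and 13.6 FPKM in shWDR43, against 6.9 and 6.7 FPKM in shCtl. The 1 higher locus, Spry4, had 95.5% and 91.8% in shWDR43 and 0% in both shCtl libraries, with RNA of 17.9 and 13.5 FPKM in shWDR43, against 52.8 and 59.2 FPKM in shCtl.

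Among the genes of CTD kinases, phosphatases and 7SK factors, 7 loci had a peak base. Of these, 0 were called lower and 1 higher, beside 4.67% and 1.43% of all coding loci with one. Past the end 1 of 17 oriented loci was called lower, near the 5.67% of all oriented loci. Of 20 measured, 14 fell in RNA and 0 rose, or 3 and 0 with the libraries centred on their medians. Of all coding loci measured, 44.0% fell and 6.28% rose, or 21.7% and 13.5% after centring. Cdk9 and Cdk12 were past the threshold no longer after centring (adjusted p = 0.26 and 0.14, limma). Cdk9 had 16.5 FPKM in both shWDR43 libraries, against 24.2 and 23.2 FPKM in shCtl (log2 fold change −0.50, limma, adjusted p = 0.017), and Cdk12 had 23.5 and 20.4 FPKM in shWDR43, against 36.3 and 30.4 FPKM in shCtl (−0.58, adjusted p = 0.018, limma). Cdk13 had 9.0 and 8.3 FPKM in shWDR43 and 12.3 and 11 FPKM in shCtl (−0.39, adjusted p = 0.052, limma), and Ccnt1, cyclin T1 of P-TEFb, 12.7 and 10.4 FPKM in shWDR43 and 15.9 and 12.1 FPKM in shCtl (−0.25, adjusted p = 0.27, limma). Polr2a, the subunit that carries the tail, had 116 and 103 FPKM in shWDR43 and 103 and 98.5 FPKM in shCtl (0.12, adjusted p = 0.44, limma; 0.45 and 0.0097 after centring), and 4.16 and 2.65 kb of Ser2P peaks within 5 kb in shWDR43, against 6.02 and 5.98 kb in shCtl. Ccnt2, cyclin T2, had 5.72% and 11.3% past its end in shWDR43, against 56.2% and 86.3% in shCtl. Mepce, the capping enzyme of 7SK RNA, was the locus called higher, at 86.9% and 42.1% of the locus in shWDR43 and 0% and 6.32% in shCtl. Past its end Mepce had 88.0% and 85.65% in shWDR43, against 0% and 91.9% in shCtl, so the groups overlapped there.

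Pol II elongation factors had 18.3 and 24.8 kb of peaks within 5 kb of 24 loci in shWDR43, against 33.4 and 40.6 kb in shCtl, a ratio of 0.58. Past the end 2 of the 14 loci with a peak there were called lower and 0 higher, a share near the 16.7% and 3.5% of all oriented loci with a peak there. These were Rtf1, a Paf1 complex subunit, with 0% in both shWDR43 libraries against 62.2% and 54.5% in shCtl, and Ell3, a factor of the ELL family that binds enhancers in embryonic stem cells, with 0% in both shWDR43 libraries against 24.1% and 27.2% in shCtl. Pol II subunit genes had 20.5 and 22.1 kb within 5 kb of 13 loci in shWDR43, against 30.2 and 34.3 kb in shCtl, a ratio of 0.66. The 22 factors of 3′ end processing and termination had 19.8 and 23.4 kb in shWDR43 and 19.4 and 19.6 kb in shCtl, a ratio of 1.11. These totals hold peaks missing from single libraries. Cpsf1 had 4.62 and 3.18 kb in shWDR43, against 0 in shCtl-1 and 4.79 kb in shCtl-2. Cpsf4 had 4.02 kb in shWDR43-2 alone. The part of such peaks in the ratio was not tested. In that list 1 of the 7 loci with a peak past the end was called lower, Xrn2, the exonuclease that ends transcription, with 0% in both shWDR43 libraries against 36.0% and 74.6% in shCtl. Called higher was Pcf11, a cleavage and termination factor that binds Ser2P, with 92.2% and 95.5% in shWDR43 and 0% in both shCtl libraries, beside RNA of 9.9 and 8.8 FPKM in shWDR43 and 22.0 and 15.0 FPKM in shCtl.

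**Figure D5:**
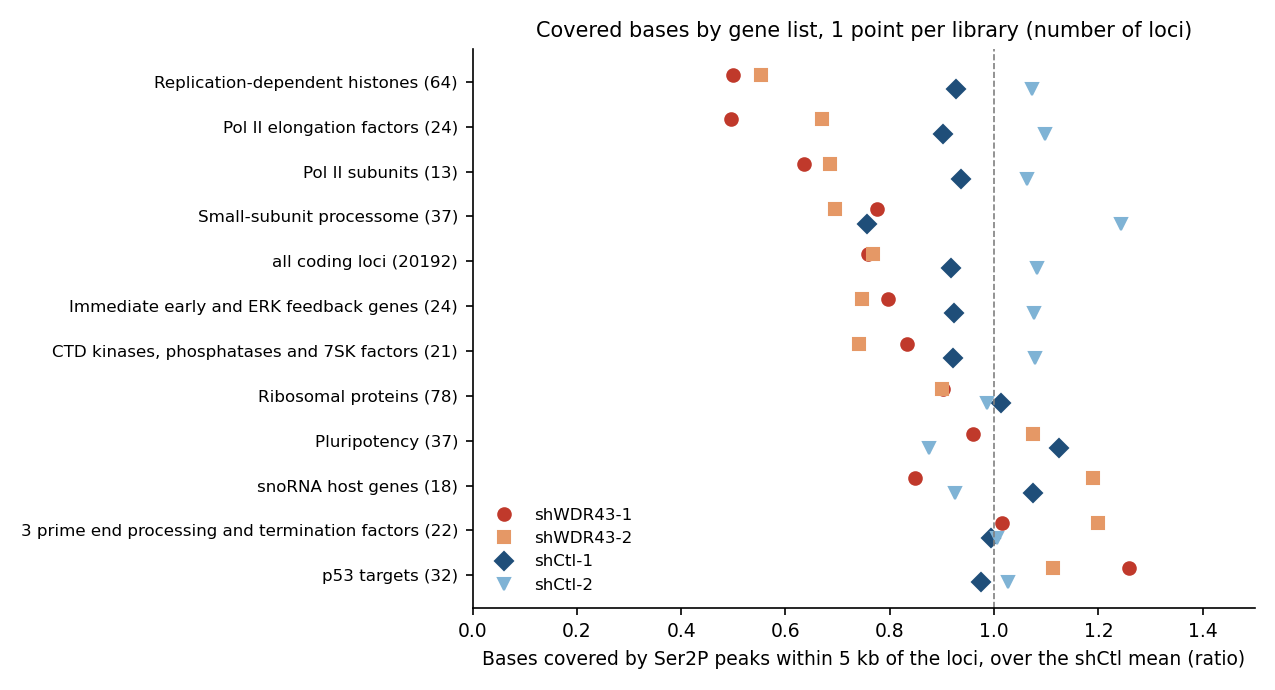
Bases covered by Ser2P peaks within 5 kb of the loci of each gene list other than the lists of cell type markers, divided by the shCtl mean of that list (ratio), 1 point per library, with the number of loci in brackets. Of the lists drawn, histones, Pol II elongation factors and Pol II subunits lie lowest in shWDR43, with ratios of group means of 0.53, 0.58 and 0.66 beside 0.76 for all coding loci, and p53 targets highest at 1.19.

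Small-subunit processome genes, the partners of WDR43, had 46.1 and 41.3 kb within 5 kb of 37 loci in shWDR43, against 45.0 and 73.9 kb in shCtl, so that the groups overlapped. Wdr43 itself had 93.6% and 95.7% of the 4 kb past its end covered in shWDR43, against 78.0% and 100% in shCtl, while its RNA fell as given above. Rn45s, the annotated 45S ribosomal RNA unit at chr17:39979942-39985774 (mm9), was covered over all 5833 bp in all 4 lists, with scores of 1771 and 2321 in shWDR43 and 1924 and 2235 in shCtl. As for the histone genes, how reads that fit several copies were placed is not stated. Coverage and score there therefore do not by themselves show Ser2P Pol II on this unit. Host genes of small nucleolar RNAs had 44.8 and 62.9 kb within 5 kb of 18 loci in shWDR43 and 56.8 and 48.9 kb in shCtl, again with overlap.

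Pluripotency genes had 72.1 and 80.7 kb of peaks within 5 kb of 37 loci in shWDR43 and 84.5 and 65.7 kb in shCtl, which overlap, although RNA fell at 30 of 37 genes and rose at 1, or at 22 and 2 after centring. The RNA shares of all genes were 42.7% that fell and 6.1% that rose. Past the far end, 5 of 20 oriented loci were called lower and 0 higher, beside 5.67% and 1.19% of all oriented loci; 15 of the 20 had a peak there, and of all oriented loci with one 16.7% were called lower. Tcl1, a coactivator of the AKT kinase, had 0% there in both shWDR43 libraries, against 56.4% and 56.5% in shCtl. Fbxo15, a target of OCT4 and SOX2, had 0% in both shWDR43 libraries, against 67.4% and 77.1% in shCtl, with RNA of 95.8 and 94.0 FPKM in shWDR43 and 87.5 and 73.6 FPKM in shCtl. Klf4, a reprogramming factor, had 40.4% and 47.8% in shWDR43, against 68.3% and 68.9% in shCtl, and Tet2, a 5-methylcytosine oxidase, 74.8% and 85.3% in shWDR43, against 97.0% and 97.1% in shCtl. The fifth was Tfcp2l1, a naive-state factor, with 66.4% and 70.4% in shWDR43, against 93.3% and 86.2% in shCtl.

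Master regulators showed missing peaks in single libraries. Pou5f1 (OCT4) had 4.40 and 4.34 kb within 5 kb in shWDR43, against 5.36 kb in shCtl-1 and 0 in shCtl-2, with RNA of 554 and 459 FPKM in shWDR43, against 1038 and 1057 FPKM in shCtl. Nanog had 3.63 and 3.94 kb in shWDR43, against 6.45 kb in shCtl-1 and 0 in shCtl-2. Sox2 had a peak in shWDR43-2 alone. Lefty1 and Lefty2, inhibitors of NODAL signalling, had no peak in any library but one, 1.17 kb near Lefty2 in shCtl-2, although their RNA fell to 3.8 and 2.7 FPKM and to 3.2 and 3.0 FPKM in shWDR43, against 25.4 and 28.0 FPKM and 35.9 and 40.7 FPKM in shCtl. For none of these genes did the Ser2P groups separate.

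RNA of the genes in each Ser2P class was compared with that of other genes. RNA was measured at 513 of the 535 loci called lower past the end: 324 fell (63.2%) and 14 rose, with a median log2 fold change of −0.60. Of 106 measured loci called higher, 44 fell (41.5%) and 9 rose, with a median of −0.33. Of 856 loci with a peak there in all 4 libraries and no call, 527 fell (61.6%), with a median of −0.54, and of 5258 with no peak there, 2134 fell (40.6%), with a median of −0.37. Loci with a peak past the end had more RNA, with median shCtl values of 25.7, 21.5 and 32.7 FPKM in the called lower, called higher and uncalled sets and 8.45 FPKM in the set without a peak. Within classes of shCtl RNA, the share that fell among loci called lower was set against that among all oriented loci. It was 30.4% against 21.9% at 1 to 10 FPKM, 64.8% against 59.3% at 10 to 50 FPKM, 85.6% against 85.4% at 50 to 200 FPKM and 90% against 96.6% above 200 FPKM. For loci called lower the difference was thus positive in the lower classes, near 0 in the next and negative in the highest, and it was not tested. Among loci called higher the share that fell was 11.1% of 27, 38.8% of 49, 64.7% of 17 and 91.7% of 12, in the same order of classes. That was below the share of all oriented loci in every class, over few loci, and was not tested either.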

How the data were processed

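Ser2P ChIP-seq peaks were taken as 4 lists, 1 per library, with a score for each peak that the authors deposited; peaks of score under 50 are not in these lists. Reads were aligned with Bowtie2 to mm9, per the submitters' processing notes; the peak caller's version and threshold and its control are not stated there. RNA values are the authors' deposited FPKM, from TopHat and Cufflinks per the submitters' processing notes, of mRNA isolated on beads per the labels' protocols. The name of that table refers to a spike-in; how it entered the scale is not stated, and the values were used on that scale except where centred. Depth is unknown for both.

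From these, covered bases, overlaps (at least 1 bp) and shares of protein-coding loci were computed in Python 3.11.15 with pandas 2.3.3, numpy 2.4.6 and scipy 1.17.1, and drawn with matplotlib 3.10.9. RNA was tested with limma 3.58.1 in R 4.3.3 on log2(FPKM + 1), for genes with a mean of at least 1 FPKM, with Benjamini-Hochberg adjustment; fold changes are on that scale and understate those of low genes. Intervals are exact Clopper-Pearson. The scripts were tested on simulated data.

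The members and lists were chosen with earlier results of these data known. Named by rule were 15 fixed genes, the 8 largest falls and 8 largest rises among called loci of at least 5 kb, the 6 widest merged regions per group, the 3 lost and 3 gained peaks of highest score, and the 2 highest and 2 lowest members of each of 14 lists; not every gene the rule picks is named. Other genes, the window of 4 kb past the far end and the histone measure were chosen after their values were seen.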

Additional observations from a re-analysis of the deposited data

How the results depend on the processing

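Peak number, covered bases and median width kept their direction under every alternative run, as did the ratio of coverage past the far end to that at the marked end and the covered kb at histones; with loci oriented by Ser5P peaks that ratio differed by −0.09, against −0.70. The labels tie same-numbered libraries to no shared culture, and they did not deviate together (r = 0.05 for RNA, −0.02 and 0.02 for Ser2P). A replicate block left the differences at −596 peaks, −2.34 Mb and −297 bp. Within replicate numbers 1 and 2 (replicate block), 1459 and 1812 peaks were lost and 1079 and 996 gained, and the share of covered bases inside loci, which differed by a mean of 0.61 percentage points, differed by 1.28 within number 1 and by −0.06 within number 2, so that its sign turned.

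The number of lost peaks, 480, was 188 with a score of at least 100, 295 with the 3000 highest scoring peaks, and 739 to 1398 with 1 library left out. Gained peaks, 222, were 96 with a score of at least 100 and 404 to 735 with 1 library left out. The share kept, 83.5%, was 86.6% with the 3000 highest scoring peaks, 80.0% at an overlap of 50%, and 67.6% to 74.5% with 1 library left out. With loci oriented by Ser5P peaks (381 loci), the difference in the share of covered bases turned to 0.47 percentage points past the far end and −2.82 inside loci; the cause was not tested.

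Loci called lower, 202, were 103 with a score of at least 100, 339 at 5 and 99 at 20 percentage points, and 285 to 518 with 1 library left out. Loci called higher, 62, were 95 at 5 and 37 at 20 percentage points, 180 after scaling by covered bases, and 130 to 159 with 1 library left out. Past the far end, in settings chosen after seeing the data, 535 lower calls were 170 with a score of at least 100, 354 after scaling, and 736 to 1293 with 1 library left out; 112 higher calls were 52, 357, and 207 to 311. Leaving out a library loosens the rule by construction.

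RNA calls among loci with a peak in all 4 libraries, 586 lower and 72 higher, were 71 and 11 without a filter on low values, 327 and 148 with centred libraries, and 0 with 1 library left out. Among loci called lower past the end, 324 lower and 14 higher were 49 and 2, 201 and 39, and 0. Over all genes, a replicate block gave 5926 lower and 840 higher, centring 2606 and 1615, and no filter 633 and 277.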
